A study of Caenorhabditis elegans with 40 samples.

Results

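A set of 10 genes that build the synaptic release machinery or make and package neuronal signals were followed through every group of a whole-body RNA sequencing study of the nematode Caenorhabditis elegans. They were unc-13, unc-18, unc-64, snb-1, ric-4 and snt-1 of the release machinery, unc-17 and unc-25 of the acetylcholine and GABA pathways, and egl-3 and egl-21 of neuropeptide processing. They were picked by symbol, not by a measured value, though with earlier results of these data known. All 10 were found among the 20956 genes of the table. The animals were the wild type strain N2 or carried one of the alleles hx546 of age-1, ad1116 of eat-2, qm30 of clk-1 and ok386 of raga-1, and each genotype was given an empty vector or RNA interference (RNAi) against repo-1 from hatching on. All were collected on day 1 of adulthood, with 4 libraries in each of the 10 groups, and the series asks how splicing factors in early life bear on longevity interventions. Nothing in the labels tells whether samples of a group were grown apart, so the p-values reflect the scatter between these samples, which may be technical.

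Neurons release transmitter when a synaptic vesicle fuses with the cell membrane. Fusion is driven by a bundle of 3 SNARE proteins, synaptobrevin on the vesicle (snb-1) and syntaxin (unc-64) and SNAP-25 (ric-4) on the target membrane. unc-18 encodes the syntaxin-binding Munc18 protein, unc-13 the priming factor that readies vesicles for fusion, and snt-1 synaptotagmin, the calcium sensor. unc-17 encodes the transporter that loads acetylcholine into vesicles and unc-25 the glutamate decarboxylase that makes GABA. egl-3 encodes a proprotein convertase, which cuts neuropeptide precursors into shorter peptides in dense core vesicles. egl-21 encodes a carboxypeptidase, which trims the ends of the cut peptides. In this animal both muscle excitation and muscle relaxation depend on these signals, and unc-17 and unc-25 mark separate classes of neurons.

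The genes lie on 6 chromosomes of the WBcel235 assembly, at these Ensembl coordinates. unc-13 is at chromosome I, 7422785 to 7454116, on the forward strand, snt-1 at chromosome II, 6810963 to 6816433, forward, and unc-18 at chromosome X, 7682896 to 7686037, forward. On chromosome III, unc-25 is at 12942651 to 12949883 and unc-64 at 13277258 to 13283887, both forward. On chromosome IV, reverse strand, are unc-17 at 3618259 to 3624699 and egl-21 at 10478442 to 10481844. On chromosome V, reverse strand, are snb-1 at 6655562 to 6656501, egl-3 at 10169177 to 10173753 and ric-4 at 10261131 to 10270314. unc-64 shares 64 exon bases with set-25 on the opposite strand. unc-17 shares 66 exon bases with cha-1, the choline acetyltransferase gene that lies in the same locus and strand.

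The unc-17 values could not be told apart from those of cha-1. The rows of both genes held the same value in all 40 columns, so each unc-17 value below stands for the unc-17 and cha-1 locus, and cha-1 was left out of the list of other transmitter genes. Reads behind a single value ranged from 24 for snt-1 and 34 for unc-17 to 5213 for egl-3. In 8 of the 10 genes the fewest reads came from age-1 repo-1 RNAi replicate 1, one of the shallow libraries, and in snb-1 and unc-25 from raga-1 empty vector replicate 1.

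Per kilobase of merged exon, the mean normalized read count over all libraries put snb-1 first at 2320, followed by egl-3 at 772, egl-21 at 691 and unc-18 at 379. unc-64 stood at 151, ric-4 at 132 and unc-25 at 99.4, and the lowest were unc-17 at 58.8, unc-13 at 44.8 and snt-1 at 42.2. The unc-17 figure divides the value of the unc-17 and cha-1 locus by the exons of unc-17 alone, so its place in this order is uncertain. The ranges of group means overlapped between several neighbours in this order. Those of egl-3 ran from 508 to 1405 per kilobase and those of egl-21 from 502 to 1160, and those of unc-13 from 32.9 to 78 and of snt-1 from 31.6 to 69. Only snb-1, whose group means ran from 2023 to 2666 per kilobase, stood above every group mean of the other 9 genes.

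Libraries held 7.43 to 40.8 M reads, and log2 values of 2 libraries of a group correlated at 0.952 to 0.992 across genes. As a check of the labels, repo-1 under RNAi stood at 38 to 52.7% of its level on empty vector in the 5 genotypes. The raga-1 and clk-1 transcripts were low in their own mutants on empty vector, at 2.55% and 34.1% of wild type. On repo-1 RNAi they stood at 4% and 37.6% of wild type on empty vector. The raga-1 libraries on RNAi ranged from 12.7 to 134.9 for raga-1, beside a mean of 1514 in wild type on empty vector. The age-1 transcript at 94.2% gave no such check, and eat-2 was too low to be tested. The library labelled raga-1 repo-1 RNAi replicate 3 carries a date and pool in its name that differ from the other libraries of its number, and leaving it out ended no call reported here for these genes.

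**Figure D1:**
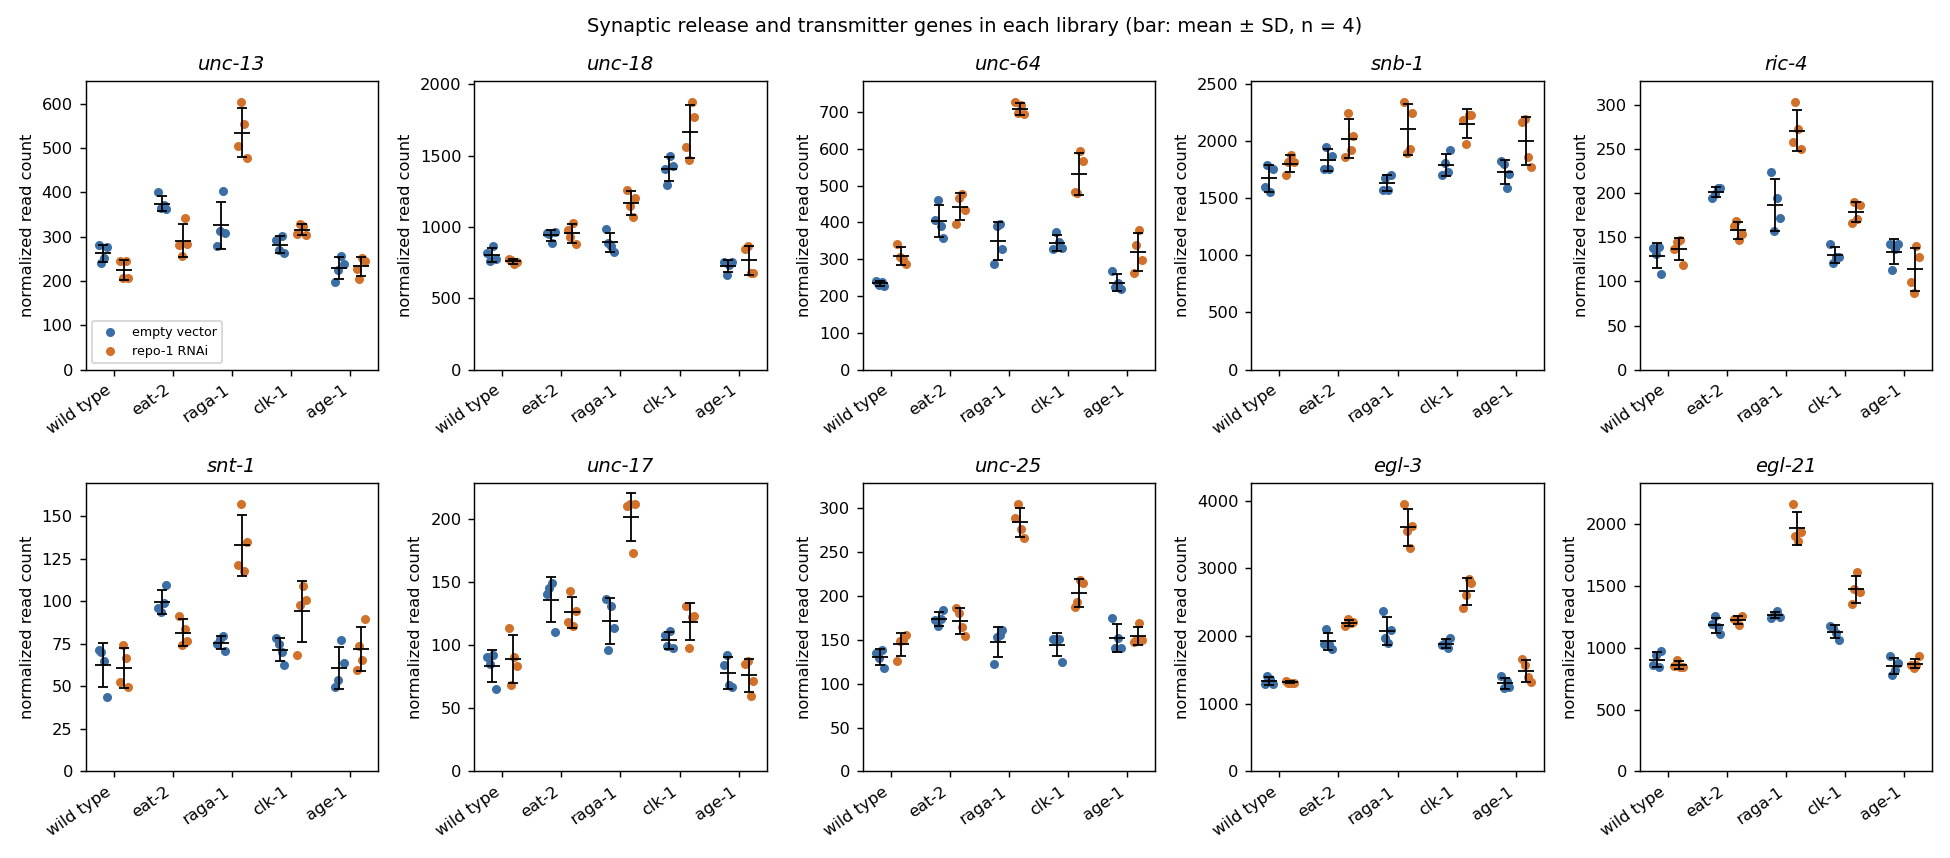
Normalized read count (vertical axis, linear, from 0) of each of the 10 genes in every library of the 5 genotypes (horizontal axis), on empty vector (blue) or repo-1 RNAi (orange); points are libraries and bars the mean ± SD of 4. raga-1 on repo-1 RNAi is the highest group for 8 genes, and clk-1 on repo-1 RNAi for unc-18 and snb-1.

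On empty vector, eat-2 mutants, in which slow pumping of the pharynx limits food intake, had more transcript of 9 of the 10 genes than wild type. The exception was snb-1. The 9 rises ranged from 0.23 for unc-18 to 0.78 for unc-64 on the log2 scale, and the median of the 10 genes was 0.51, against 0.0018 for all 12327 genes tested. By the same test (limma across all genes, adjusted p under 0.05) 27.2% of all genes were higher in eat-2, and none of the 10 fell. In whole-body RNA, more neurons relative to other cells and more transcript per neuron cannot be told apart where a value is higher, nor fewer neurons and less transcript where it is lower. The share of all called genes that were higher in eat-2 was 47.7% as deposited and 37.7% after quantile normalization.

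Among the SNARE genes, unc-64 read 241, 229, 239 and 227 normalized counts in the 4 wild type libraries and 406, 462, 390.4 and 357 in eat-2. All 4 eat-2 libraries lay above all 4 of wild type (log2 fold change 0.78 ± 0.098, limma adjusted p = 2.81e-08). ric-4 read 138, 131, 139 and 109 in wild type and 194, 198, 206 and 205 in eat-2, again without overlap (log2 fold change 0.64 ± 0.12, limma adjusted p = 1.73e-05). Its partner on the vesicle, snb-1, went from 1674 ± 117 (SD, n = 4) to 1832 ± 94.7, with overlapping libraries, and did not pass (log2 fold change 0.13 ± 0.07, limma adjusted p = 0.109). The edgeR test on recovered reads did call snb-1 higher (0.17, adjusted p = 0.0233).

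Of the factors that act on the SNARE bundle, unc-13 read 282, 241, 253 and 276 in wild type and 401, 365, 371 and 363 in eat-2. Every eat-2 library was higher (log2 fold change 0.51 ± 0.097, limma adjusted p = 3.05e-05). snt-1 rose from 62.5 ± 12.8 to 99.6 ± 6.88 (log2 fold change 0.69 ± 0.16, limma adjusted p = 0.000396). unc-18 rose least, from 806 ± 48.3 to 943 ± 37.7 (log2 fold change 0.23 ± 0.075, limma adjusted p = 0.0105), and without replicate 2 or 4 it missed the threshold (0.19 in both, adjusted p = 0.0554 and 0.0761).

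The transmitter and peptide genes were higher as well. unc-17 read 90.4, 85.2, 92.3 and 64.9 in wild type and 140.1, 145, 149 and 110.4 in eat-2, where each library exceeded the highest of wild type (log2 fold change 0.71 ± 0.15, limma adjusted p = 0.000104). unc-25 rose from 130 ± 9.27 to 174 ± 7.79 (log2 fold change 0.42 ± 0.093, limma adjusted p = 0.000239). egl-3 rose to 143% of wild type (log2 fold change 0.52 ± 0.065, limma adjusted p = 2.66e-08) and egl-21 to 131% (log2 fold change 0.39 ± 0.055, limma adjusted p = 3.08e-07), and for both the groups did not overlap. Of all genes tested, 27.9% had their 4 eat-2 libraries above the 4 of wild type, as did 9 of these 10.

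The scaling mattered for eat-2. With quantile normalization in place of the deposited scaling the median of the 10 genes was 0.30, and snt-1 (0.20, adjusted p = 0.251), unc-17 (0.27, adjusted p = 0.134) and unc-25 (0.069, adjusted p = 0.515) no longer passed, while ric-4 was 0.31 and snb-1 passed (0.23, adjusted p = 0.00347). The share of called genes that were higher in eat-2 was 47.7% as deposited and 37.7% after quantile normalization.

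raga-1 mutants, which lack a Rag GTPase that switches on the growth kinase complex TORC1, had more transcript of 6 of the 10 genes on empty vector, and none fell. In this comparison 19.7% of all genes were called higher and 26.4% lower, and the median of the 10 genes was 0.39 against -0.024 for all genes. egl-3 read 1294, 1414, 1367 and 1286 in wild type and 2363, 1972, 1899 and 2082 in raga-1, and egl-21 read 858, 944, 842 and 971 and 1243, 1266, 1298 and 1247. All raga-1 libraries were above all of wild type for both peptide-processing genes (egl-3 log2 fold change 0.63 ± 0.065, limma adjusted p = 7.7e-10; egl-21 0.49 ± 0.055, adjusted p = 6.6e-09). unc-64 rose to 149% of wild type (log2 fold change 0.57 ± 0.098, limma adjusted p = 1.35e-05), ric-4 to 144% (log2 fold change 0.52 ± 0.12, limma adjusted p = 0.000416) and unc-17 to 143% (log2 fold change 0.51 ± 0.15, limma adjusted p = 0.00444). The groups did not overlap in 5 of the 10 genes, with raga-1 above, as in 16.6% of all genes.

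The sixth rise, that of unc-13, depended on which libraries were kept. unc-13 read 280.1, 313, 403 and 309 in raga-1, of which the first lies within the range of wild type (log2 fold change 0.30 ± 0.097, limma adjusted p = 0.0116). Without replicate 3, which holds the highest of these values, the log2 fold change was 0.18 (adjusted p = 0.16), and without replicate 2 it was 0.27 (adjusted p = 0.0573). unc-18, snt-1 and unc-25 had differences of 0.15, 0.30 and 0.18 that did not pass, and snb-1 one of -0.034 with a 95% interval of -0.18 to 0.11. unc-17 missed the threshold without replicate 4 (0.42, adjusted p = 0.0617), and unc-25 passed without replicate 1 (0.29, adjusted p = 0.0168).

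clk-1 mutants, which lack an enzyme of ubiquinone synthesis, differed most from wild type in unc-18 among the 10 genes. On empty vector unc-18 read 820.2, 763, 869 and 774 in wild type and 1411, 1295, 1497 and 1429.8 in clk-1. The lowest clk-1 library was well above the highest of wild type, and the mean was 175% of wild type (log2 fold change 0.80 ± 0.075, limma adjusted p = 2.55e-11). The same gene was 0.23 ± 0.075 higher in eat-2 and 0.15 ± 0.075 in raga-1, against the same wild type libraries.

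A further 3 of the 10 genes rose in clk-1, against 27.8% of all genes called higher there. unc-64, whose protein is bound by that of unc-18, rose from 234 ± 6.98 to 345 ± 21.4 (log2 fold change 0.56 ± 0.098, limma adjusted p = 9.2e-06). egl-3 rose to 141% (log2 fold change 0.49 ± 0.065, limma adjusted p = 4.94e-08) and egl-21 to 125% (log2 fold change 0.32 ± 0.055, limma adjusted p = 5.76e-06). unc-17 ranged from 97.4 to 111 in clk-1, all above the highest of wild type at 92.3, and missed the threshold (log2 fold change 0.33 ± 0.15, limma adjusted p = 0.0552). It passed in the limma fit with the replicate number as a block (adjusted p = 0.0444). ric-4 stood at 100.4% of wild type as deposited (0.0095 ± 0.12) and did not pass. After quantile normalization it was called lower by limma (-0.26, adjusted p = 0.0412), so that call depended on the scaling. In 5 of the 10 genes the 4 clk-1 libraries were above the 4 of wild type, as in 28.1% of all genes.

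In age-1 mutants, which are impaired in the phosphoinositide kinase of the insulin pathway, none of the 10 genes was called against wild type on empty vector by limma, where 8.48% of all genes were called in either direction. At an unadjusted p under 0.05 there was 1 gene, unc-25, with 174, 141, 152 and 141 in age-1 against 135, 129, 138 and 117 in wild type (log2 fold change 0.22 ± 0.093, limma adjusted p = 0.144). The edgeR test on recovered reads also called none. unc-18 read lower in each age-1 library than in any of wild type (90.1%), with a 95% interval of the log2 difference of -0.30 to 0.0023. Such separation was seen in 7.24% of all genes below and 7.65% above wild type, and in 1 of the 10 each way. The median of the 10 genes was -0.036.

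**Figure D2:**
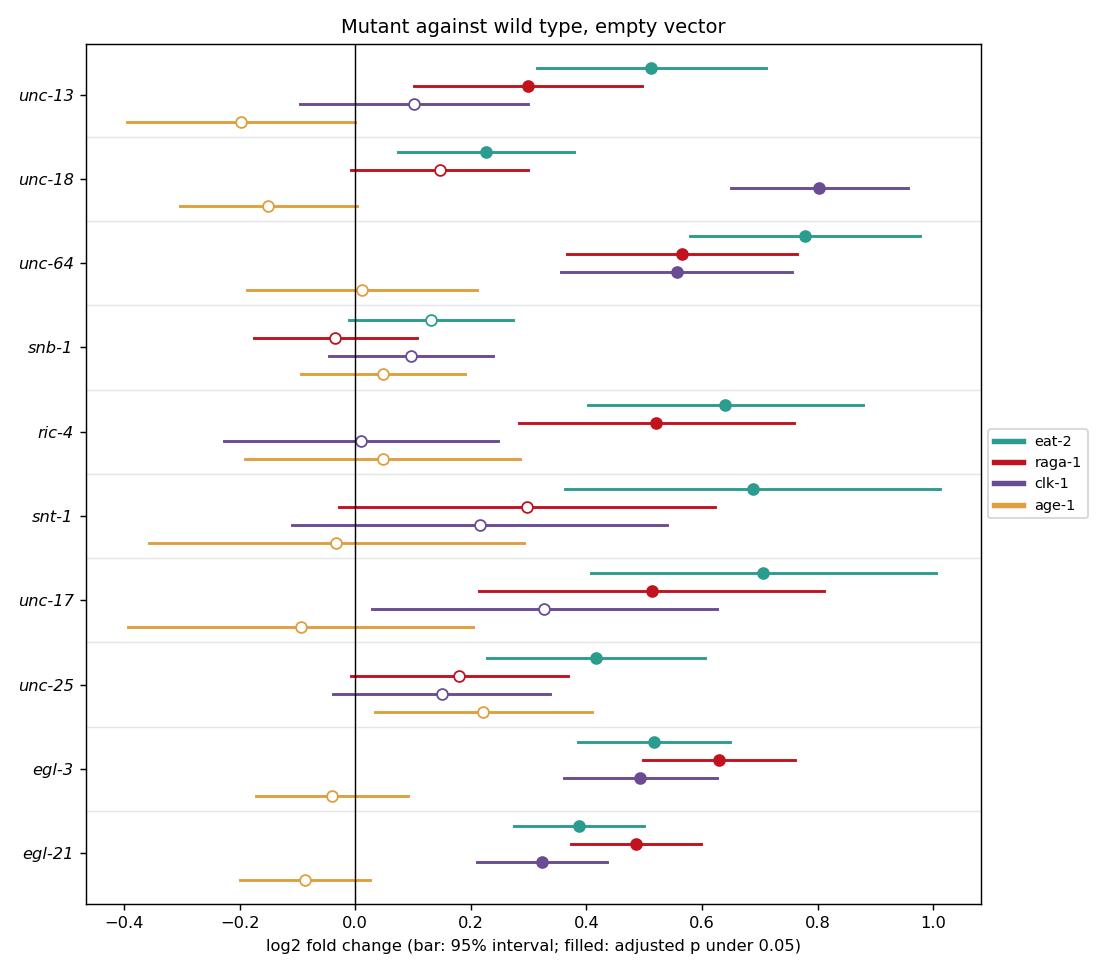
Log2 fold change (horizontal axis) of each gene (rows) in the 4 mutants against wild type on empty vector, with 95% intervals from limma; filled points have an adjusted p under 0.05. The filled points number 9 for eat-2, 6 for raga-1, 4 for clk-1 and none for age-1, and the unc-18 value of 0.80 in clk-1 lies to the right of its other 3.

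Under repo-1 RNAi the 10 genes had their largest median change in raga-1, where all of them rose. The rises ran from 0.36 for snb-1 to 1.03 for unc-64, and the median was 0.74 against 0.10 for all genes tested. In the same comparison 71.1% of all genes were called in either direction with 38.2% called higher and 33% lower. For all 10 genes the 4 RNAi libraries were above the 4 on empty vector, as for 29.5% of all genes. After quantile normalization all 10 were still called higher, with a median of 0.64.

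unc-64 read 288, 389.6, 395 and 327 normalized counts in raga-1 on empty vector and 726, 696, 720.1 and 694 on repo-1 RNAi. The RNAi libraries were close together and each was above every empty vector library (log2 fold change 1.03 ± 0.098, limma adjusted p = 2.78e-11). ric-4 rose from 224, 157, 194 and 171 to 258, 303, 273 and 250.1 (log2 fold change 0.54 ± 0.12, limma adjusted p = 0.00011), and snb-1 from 1574, 1679, 1575 and 1704 to 2336, 1894, 1929.7 and 2239.6 (log2 fold change 0.36 ± 0.07, limma adjusted p = 3.05e-05). In snb-1, the most abundant of the 10 per kilobase, replicates 2 and 3 on RNAi stayed nearer to empty vector than replicates 1 and 4.

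unc-13 read 280.1, 313, 403 and 309 on empty vector and 505, 603, 554 and 479 on RNAi, without overlap (log2 fold change 0.72 ± 0.097, limma adjusted p = 5.9e-08). snt-1 rose to 176% of its level on empty vector (log2 fold change 0.80 ± 0.16, limma adjusted p = 4.57e-05) and unc-18 to 131% (log2 fold change 0.39 ± 0.075, limma adjusted p = 2.85e-05). The size for snt-1, the gene with the fewest reads, depended on the scaling and was 0.36 after quantile normalization (adjusted p = 0.0334).

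unc-25 read 123, 153, 155 and 161 on empty vector and 289, 305, 276 and 265 on RNAi. Its lowest RNAi library was far above its highest on empty vector (log2 fold change 0.94 ± 0.093, limma adjusted p = 6.05e-11). unc-17 read 136, 96.4, 131 and 113 and 210, 211, 173 and 211, where replicate 3 was lower than the other three RNAi libraries but above all on empty vector (log2 fold change 0.76 ± 0.15, limma adjusted p = 2.66e-05, and 0.46 after quantile normalization).

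egl-3 rose from 2363, 1972, 1899 and 2082 to 3951, 3546, 3301 and 3622 and egl-21 from 1243, 1266, 1298 and 1247 to 2161, 1903, 1864 and 1938. Both were higher in every RNAi library (egl-3 log2 fold change 0.80 ± 0.065, limma adjusted p = 6.18e-13; egl-21 0.64 ± 0.055, adjusted p = 2.99e-12). The share of all called genes that were higher on RNAi in raga-1 was 53.7% as deposited and 43.4% after quantile normalization, which moved the median of all genes from 0.10 to -0.065.

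In clk-1, repo-1 RNAi raised 7 of the 10 genes and lowered none, against 23.8% of all genes called higher and 22.5% lower. The median of the 10 was 0.37, against 0.0040 for all genes. unc-64 read 328, 375, 346 and 332 on empty vector and 484, 481, 594 and 567 on RNAi, without overlap (log2 fold change 0.62 ± 0.098, limma adjusted p = 3.32e-06). egl-3 rose from 1886 ± 66.2 to 2662 ± 198 (log2 fold change 0.49 ± 0.065, limma adjusted p = 1.16e-07), and egl-21 from 1129.7 ± 51.5 to 1471 ± 107 (log2 fold change 0.38 ± 0.055, limma adjusted p = 7.57e-07). unc-25 rose to 141% (log2 fold change 0.49 ± 0.093, limma adjusted p = 4.3e-05), ric-4 to 138% (log2 fold change 0.46 ± 0.12, limma adjusted p = 0.0015) and snb-1 to 120.3% (log2 fold change 0.27 ± 0.07, limma adjusted p = 0.002).

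unc-18, already high in this mutant, read 1411, 1295, 1497 and 1429.8 on empty vector and 1562, 1472, 1874 and 1771 on RNAi, the highest level of any group. It passed although replicate 2 on RNAi overlapped with empty vector (log2 fold change 0.24 ± 0.075, limma adjusted p = 0.00863), and missed without replicate 4 (0.22, adjusted p = 0.0556). snt-1 read 78.3, 75, 70.5 and 62.8 and 68.5, 97.6, 109 and 101, where replicate 1 on RNAi was within the empty vector range (log2 fold change 0.37 ± 0.16, limma adjusted p = 0.0556). Without replicate 1 it passed (0.56, adjusted p = 0.0112), and the median of the 10 genes was 0.49. unc-13 and unc-17 had differences of 0.16 ± 0.097 and 0.18 ± 0.15 that did not pass. The 4 RNAi libraries were above the 4 on empty vector for 7 of the genes, against 21.7% of all genes.

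In wild type, RNAi raised only unc-64 among the 10 genes, where 10.1% of all genes were called higher and 12.9% lower. unc-64 read 241, 229, 239 and 227 on empty vector and 341, 305, 302 and 286 on RNAi, and each RNAi library was above each on empty vector (log2 fold change 0.39 ± 0.098, limma adjusted p = 0.00314), as in 14.1% of all genes. The other 9 had differences between -0.22 for unc-13 and 0.15 for unc-25. unc-13 read 244, 206, 246 and 207 on RNAi against 282, 241, 253 and 276, and was lower at each replicate number (log2 fold change -0.22 ± 0.097, limma adjusted p = 0.0983). Without replicate 3 that fall passed (-0.28, adjusted p = 0.0488).

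In eat-2 the RNAi lowered 2 genes and raised 1, where 21.4% of all genes were called lower and 16.2% higher. unc-13 fell from 401, 365, 371 and 363 to 281, 257, 343 and 284, with every RNAi library below every one on empty vector (log2 fold change -0.37 ± 0.097, limma adjusted p = 0.00289). ric-4 fell from 194, 198, 206 and 205 to 163, 168, 147 and 154, also without overlap (log2 fold change -0.35 ± 0.12, limma adjusted p = 0.0181). egl-3 rose from 1889, 2110.1, 1876 and 1805 to 2146, 2251, 2189 and 2208 (log2 fold change 0.20 ± 0.065, limma adjusted p = 0.0158). Of the 10 genes 3 had all RNAi libraries below those on empty vector and 1 had all above, against 23% and 17.3% of all genes; the third below was snt-1, which did not pass. unc-64 read 404 ± 43.7 and 442 ± 36.6 and did not pass (-0.066 to 0.33, 95% interval of the log2 difference).

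Both the ric-4 and the egl-3 call in eat-2 were lost without replicate 3 (adjusted p = 0.12 and 0.0728) and without replicate 4 (adjusted p = 0.0807 and 0.111). After quantile normalization the ric-4 difference did not pass (-0.20, adjusted p = 0.14). The fall of unc-13 passed under each of the 10 alternatives. The share of all called genes that were higher on RNAi in eat-2 was 43.1% as deposited and 54.3% after quantile normalization.

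In age-1, unc-64, snb-1 and egl-3 rose on RNAi, where 10.6% of all genes were called higher. unc-64 read 268, 224, 236 and 219 on empty vector and 262, 338, 379.6 and 299 on RNAi, where replicate 1 fell short of the highest empty vector library (log2 fold change 0.42 ± 0.098, limma adjusted p = 0.00224). snb-1 went from 1826, 1794, 1592 and 1707 to 2168, 2191, 1863 and 1773 (log2 fold change 0.20 ± 0.07, limma adjusted p = 0.0336), and egl-3 from 1406, 1237, 1331 and 1243 to 1655, 1574, 1389 and 1319 (log2 fold change 0.18 ± 0.065, limma adjusted p = 0.0424). In each of the 3 genes the groups overlapped. In both snb-1 and egl-3, RNAi replicates 1 and 2 were higher than replicates 3 and 4, and for snb-1 the same held on empty vector. At each replicate number both genes read higher on RNAi than on empty vector.

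The calls of snb-1 and egl-3 in age-1 were near the threshold. Without the filter on low values, without replicate 1 or without replicate 2 only unc-64 passed, without replicate 3 none did, and the edgeR test on recovered reads did not call egl-3 (adjusted p = 0.0539), which also missed without replicate 4 (adjusted p = 0.0573). Over the 5 genotypes together, the averaged RNAi effect raised 8 of the 10 genes, where 31.4% of all genes were called higher. The averaged rise was 0.52 ± 0.044 for unc-64 and 0.33 ± 0.029 for egl-3, and unc-13 (0.063 ± 0.044) and ric-4 (0.098 ± 0.052) did not pass. The averaged rise of unc-17 was 0.18 ± 0.066 and, without replicate 4, 0.11 (adjusted p = 0.234), and snt-1 missed the threshold without replicate 2 or 4 (adjusted p = 0.0715 and 0.0567).

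**Figure D3:**
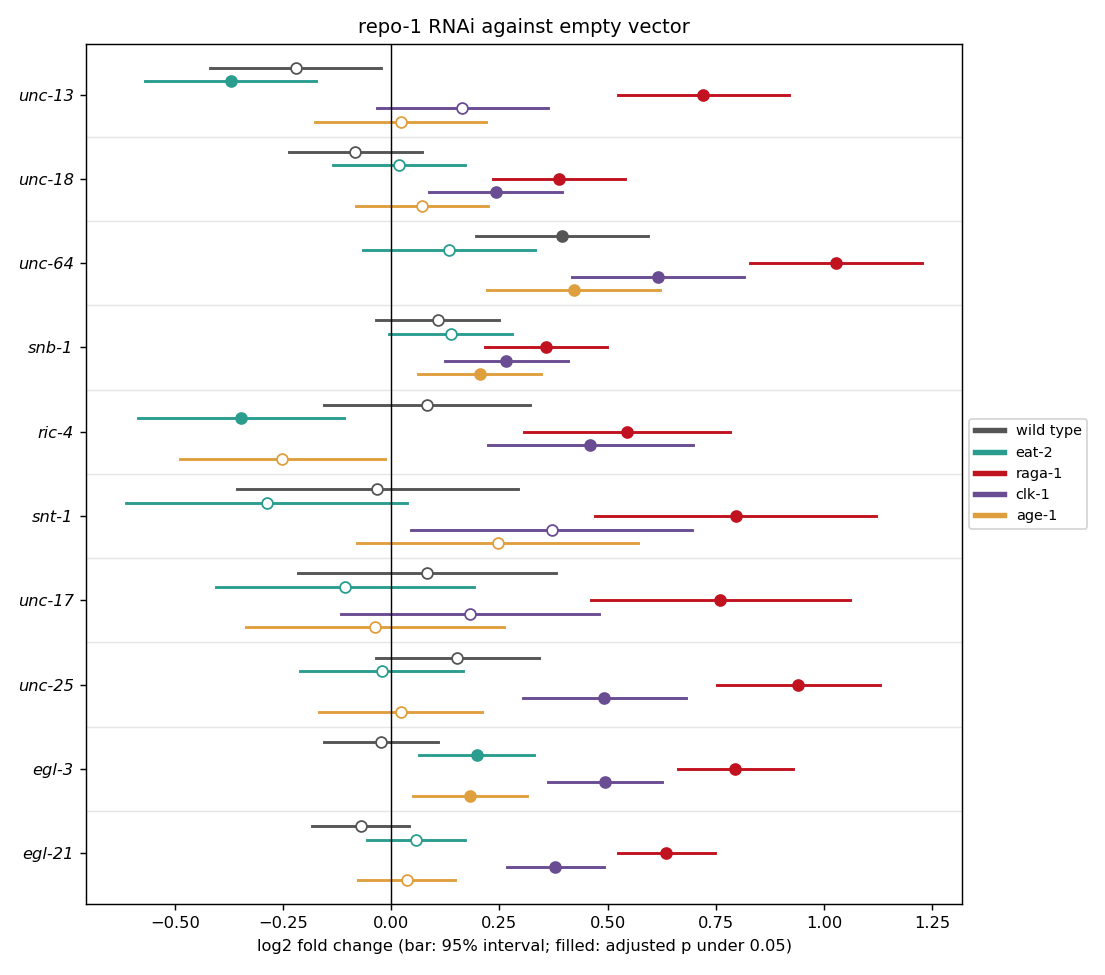
Log2 fold change (horizontal axis) of each gene (rows) on repo-1 RNAi against empty vector in the 5 genotypes, with 95% intervals from limma; filled points have an adjusted p under 0.05. All 10 raga-1 points are filled and positive, 7 are filled for clk-1, and only unc-13 and ric-4 in eat-2 are filled on the negative side.

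Whether the RNAi effect in a mutant differed from that in wild type was tested as the interaction. In raga-1 all 10 genes had a larger response than in wild type, where 55.6% of all genes were called in either direction and 28.4% were called for a higher response. unc-13 had the largest difference of the 10, at 0.94 ± 0.14 (limma adjusted p = 7.19e-07); its RNAi difference was -0.22 in wild type and 0.72 in raga-1. snt-1 followed with 0.83 ± 0.23 (adjusted p = 0.00252), then egl-3 with 0.82 ± 0.092 (adjusted p = 4.85e-09), and unc-25 had 0.79 ± 0.13 (adjusted p = 5.93e-06). snb-1 had the smallest, at 0.25 ± 0.099 (adjusted p = 0.0314).

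Of the 10 raga-1 interactions, 4 depended on the setting. snb-1 did not pass with edgeR (0.19, adjusted p = 0.0843) or without replicate 1 or 4. After quantile normalization ric-4 (0.29, adjusted p = 0.121), snt-1 (0.41, adjusted p = 0.108) and unc-17 (0.40, adjusted p = 0.13) did not pass. ric-4 also missed without replicate 2 or 3 (adjusted p = 0.0963 and 0.0521), and unc-17 was 0.42 without replicate 2 (adjusted p = 0.116). Of all called genes, 51.1% had a higher response in raga-1 as deposited and 38.3% after quantile normalization.

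In clk-1 the response was larger than in wild type for 4 genes, where 13.7% of all genes were called in that direction. These were egl-3 (0.52 ± 0.092, limma adjusted p = 5.54e-05), egl-21 (0.45 ± 0.078, adjusted p = 4.18e-05), unc-13 (0.39 ± 0.14, adjusted p = 0.038) and unc-18 (0.32 ± 0.11, adjusted p = 0.0238). The unc-64 response was not shown to differ from wild type (0.22 ± 0.14, adjusted p = 0.265), with an interval of -0.059 to 0.50. unc-13 did not pass with edgeR (adjusted p = 0.09), without the filter on low values (adjusted p = 0.0522) or without replicate 1, 2 or 4 (adjusted p = 0.0584, 0.148 and 0.258), and unc-18 missed without replicate 3 (0.25, adjusted p = 0.165) or 4 (adjusted p = 0.0958). Without replicate 4 only egl-3 and egl-21 were called.

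In eat-2 no interaction was called by limma among the 10 genes, against 10.7% of all genes, with 2 at an unadjusted p under 0.05 and 1, ric-4, called by edgeR (-0.48, adjusted p = 0.0452). ric-4 had -0.43 ± 0.17 in limma (adjusted p = 0.094). In age-1 none was called by limma, against 0.00811% of all genes, with 1 at an unadjusted p under 0.05, egl-3 (0.21 ± 0.092). edgeR called none of the 10 there.

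Genes of the same processes outside the 10 were counted on lists. Of 39 further genes of the release machinery, all tested, 26 were higher and 5 lower in eat-2 than in wild type, where 27.2% of all genes were called higher and 29.8% lower, with a median of 0.51. The active zone gene cla-1 went from 123 to 540.3 normalized counts (2.14 ± 0.24), the calcium-activated potassium channel gene slo-1 from 97.7 to 318 (1.69 ± 0.13), and the kinase genes sad-1 and dgk-1 rose by 1.55 and 1.41. On RNAi in eat-2, 13 of the 39 fell and 2 rose, against 21.4% and 16.2% of all genes, and the falls included cla-1 (-1.33 ± 0.24) and slo-1 (-0.97 ± 0.13).

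On RNAi in raga-1, 25 of the 39 rose and 8 fell, against 38.2% and 33% of all genes, with a median of 0.43. The calcium channel gene unc-2 went from 225 to 472 (1.07 ± 0.084), complexin cpx-1 from 93.6 to 193 (1.04 ± 0.12), and synaptogyrin sng-1, also on the pan-neuronal list, and tomosyn tom-1 rose by 0.99 and 0.91. On RNAi in clk-1, 9 rose and 8 fell, shares near the 23.8% of all genes called higher and the 22.5% called lower, and the median was 0.049. There cpx-1 rose (0.85 ± 0.12), while cla-1 (-0.95 ± 0.24) and the liprin gene syd-2 (-0.64 ± 0.064) fell.

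Of 18 other genes of transmitter synthesis and transport, 15 were tested. On RNAi in raga-1, 9 rose and 2 fell, against 38.2% and 33% of all genes. In wild type none rose and 6 fell, and in eat-2 none rose and 8 fell, where 12.9% and 21.4% of all genes fell. In clk-1 3 rose and 4 fell, against 23.8% and 22.5% of all genes. In age-1 none rose and 2 fell, where 10.6% of all genes rose and 1262 of 12327 fell. The summed normalized count of the 18 genes was lower on RNAi in every genotype. Its median went from 15221 to 11604 in raga-1, from 14888 to 10008.5 in wild type and from 13914 to 9822 in eat-2. In clk-1 it went from 13379 to 9615 and in age-1 from 16090 to 11392.5. The fall of tbh-1, which makes octopamine and is also expressed outside neurons, was the largest among them in raga-1 (-2.87 ± 0.19), clk-1 (-3.77 ± 0.19) and eat-2 (-1.89 ± 0.19). ace-3, an acetylcholinesterase gene, went from 24.9 to 147 in eat-2 against wild type (2.52 ± 0.21) and rose in raga-1 on RNAi (1.05 ± 0.21).

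Of 16 other genes of peptide processing and dense core vesicles, 11 rose and 2 fell on RNAi in raga-1, against 38.2% and 33% of all genes, with a median of 0.47. The 4 largest changes were rises of the peptide amidation genes pghm-1 (0.85 ± 0.077) and pgal-1 (0.76 ± 0.062), of the dense core vesicle gene ida-1 (0.75 ± 0.085) and of sbt-1 (0.74 ± 0.064), whose protein is a chaperone of the egl-3 convertase. In wild type 3 rose and 2 fell, against 10.1% and 12.9% of all genes. On RNAi in clk-1 7 rose and 6 fell, against 23.8% and 22.5% of all genes, with a median of 0.086. On RNAi in eat-2 1 rose and 5 fell, against 16.2% and 21.4%. In clk-1 on empty vector 9 of these 16 were higher than wild type and none lower, against 27.8% and 30.4% of all genes.

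Transmitter receptors, which act on the receiving cell, were represented by 40 genes, of which 34 were tested. On RNAi 23 rose and none fell in raga-1, against 38.2% and 33% of all genes, with a median of 0.84. In clk-1 6 rose and none fell, against 23.8% and 22.5%. Among the largest rises in raga-1 were the serotonin receptor genes ser-1, from 36.9 to 123, and mod-1, from 18.8 to 62.1. In eat-2 on RNAi 7 receptor genes fell and none rose, against 21.4% and 16.2% of all genes.

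General neuronal markers had smaller medians than the 10 genes in raga-1 and clk-1. Of 14 pan-neuronal markers, 7 rose and 4 fell on RNAi in raga-1, against 38.2% and 33% of all genes, with a median of 0.31. In clk-1 2 rose and 1 fell, against 23.8% and 22.5%, with a median of 0.0056. The mean log2 change of the 14 markers was 0.31 in raga-1 and 0.064 in clk-1. Each of the 10 genes had a log2 difference above that mean, by 0.049 to 0.72 in raga-1 and by 0.10 to 0.55 in clk-1. The excess of 0.049, for snb-1, was smaller than its SD within each group (0.18 on RNAi, 0.094 on empty vector). Fewer genes exceeded the marker mean of the same comparison elsewhere. On RNAi these were 7 of the 10 for eat-2, 6 for age-1 and 5 for wild type. Against wild type on empty vector they were 9 for raga-1, 8 for eat-2, 6 for age-1 and 6 for clk-1. In eat-2 against wild type 9 markers were higher and 2 lower, against 27.2% and 29.8% of all genes, with a median of 0.39. None of these differences between lists was tested.

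Markers of other tissues moved with the same comparisons. In raga-1 the summed normalized count of 16 oocyte and germline markers ranged from 208643 to 225829 on empty vector and from 111355 to 128151 on RNAi, and 15 of the 16 were called lower, against 33% of all genes. Over the same libraries the sum of 12 body wall muscle markers went from a range of 163427 to 196398 to one of 297436 to 314784, and 11 were called higher and 1 lower, where 38.2% of all genes were higher. Of 11 intestine markers tested 9 were called higher, and of 10 hypodermis markers 6 were called higher and 2 lower. The median changes were 0.81 for muscle, 0.83 for hypodermis, 0.37 for intestine and -0.84 for germline, beside 0.74 for the 10 genes. On empty vector 7 muscle markers were called higher and none lower in raga-1 than in wild type, and 8 germline markers lower and 1 higher, against 19.7% of all genes higher and 26.4% lower. Intestine markers were 4 higher and 3 lower there, hypodermis markers 2 higher and 3 lower, and pan-neuronal markers 3 higher and 2 lower. The pan-neuronal median was 0.027, beside 0.39 for the 10 genes. The part of these tissue shifts in the values of the 10 genes was not tested.

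In clk-1 on RNAi, 23.8% of all genes were called higher and 22.5% lower. There 8 muscle markers were higher and 1 lower, and 4 germline markers were higher and 7 lower. Of the intestine markers 5 were higher and 2 lower, and of the hypodermis markers 5 were higher and 2 lower. The germline sum was 191764 to 203291 on empty vector and 156868 to 171571 on RNAi. The median changes were 0.50 for muscle, 0.27 for hypodermis, 0.22 for intestine and -0.11 for germline, beside 0.37 for the 10 genes. In eat-2 on empty vector all 16 germline markers were called lower than in wild type and 8 of the 12 muscle markers higher, against 29.8% of all genes lower and 27.2% higher. Of the 11 intestine markers 7 were called higher and 1 lower, with a median of 0.39. There 3 of the 10 hypodermis markers were called higher and 2 lower, and their sum was 0.781 to 0.811 of the wild type mean. The cuticle collagen gene dpy-7, on the hypodermis list, went from 41 to 459, the largest change on that list. In clk-1 on empty vector 13 germline markers were lower and 1 higher than wild type, and 8 of the 12 muscle markers were lower and 3 higher, against 30.4% of all genes lower and 27.8% higher. Intestine markers were 4 higher and 4 lower there, and hypodermis markers 4 higher and 3 lower. The muscle sum in clk-1 was 0.747 to 0.836 of the wild type mean. No listed marker was at 0 in all libraries of a group, and their part in these results was not tested either.

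**Figure D4:**
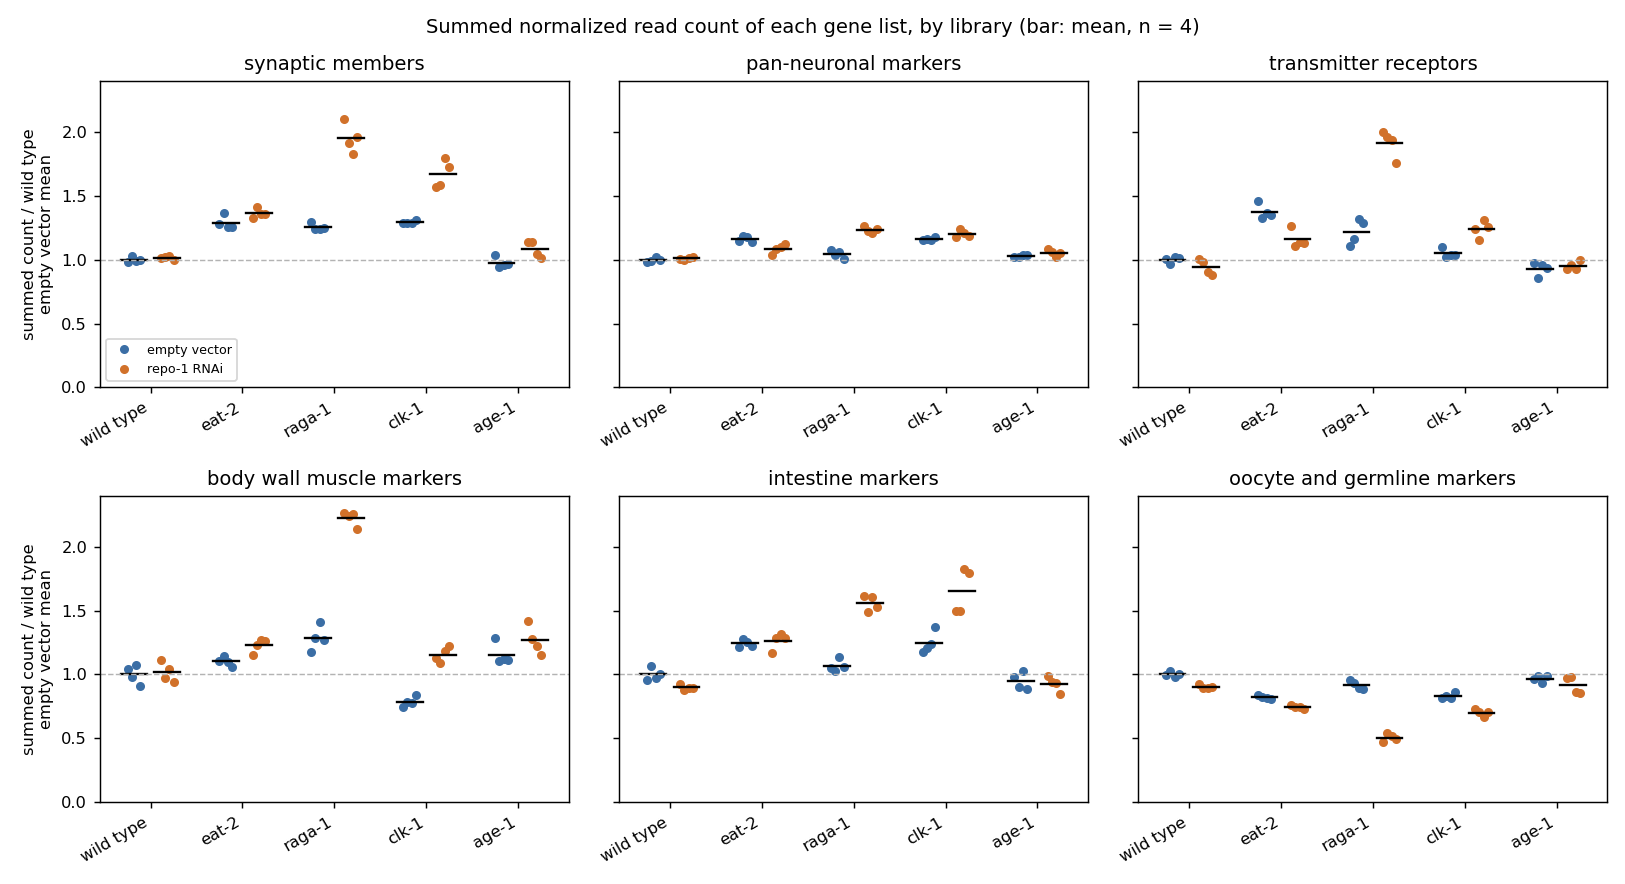
Summed normalized read count of 6 gene lists in every library, divided by the mean of wild type on empty vector (vertical axis, linear, from 0, dashed line at 1), by genotype (horizontal axis) on empty vector (blue) or repo-1 RNAi (orange); bars are means of 4. In raga-1 on RNAi the sum of the 10 genes lies at 1.83 to 2.1, that of pan-neuronal markers at 1.21 to 1.26 and that of oocyte and germline markers at 0.472 to 0.543.

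Over the 10 groups the genes followed one another closely, with 2 exceptions. The correlation of a gene's log2 group means with the mean of the other 9 genes, given as a description over 10 groups from the same libraries, was 0.87 to 0.98 for 8 genes. It was 0.62 for unc-18, which was highest in clk-1, and 0.62 for snb-1, which varied least. The ratio of the highest to the lowest group mean was 1.32 for snb-1 and between 2.18 and 3.03 for the other 9.

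In the order of group means, adjacent groups seldom separated. For snb-1 none of the 9 adjacent pairs was free of overlap between libraries, and for unc-64, egl-3 and egl-21 there were 3 such pairs. raga-1 on RNAi, the highest group of 8 genes, lay above the next group without overlap in each of those 8. In unc-18 and snb-1 the libraries of the highest group overlapped with those of the next. The lowest group differed among genes. It was age-1 on empty vector for unc-18, egl-3 and egl-21, age-1 on RNAi for ric-4 and unc-17, wild type on empty vector for unc-64 and unc-25, wild type on RNAi for unc-13 and snt-1, and raga-1 on empty vector for snb-1.

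Among 5204 other named genes whose mean reached 100, the pattern most like the mean of the 10 genes over the 10 groups was that of pgal-1 (Pearson's r = 0.988), followed by dapk-1 (0.988), pmk-3 (0.984), sbt-1 (0.981) and mxt-1 (0.98). pgal-1 and sbt-1 were on the peptide processing list. dapk-1 encodes a death-associated protein kinase and pmk-3 a p38 family kinase.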

How the data were processed

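The deposited values are a normalized signal, gene counts that the authors divided by 1 size factor per library, as the steps of the values show. Per the submitters' processing notes, the tools were STAR, Salmon 0.14.2, DESeq2, FastQC 0.11.8 and MultiQC, with no roles or settings given, and the build was WBcel235. All 40 value columns were matched to libraries by name. Dividing a column by its common step gave read numbers that were whole to within 0.01 for 100% of values, though in 2 columns the step was close to 1 and showed little.

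Values were taken as log2(value + 1), so changes of low genes are understated. One limma 3.58.1 model (R 4.3.3, a mean per group, intensity trend) covered the 12327 genes whose mean value reached 10, with Benjamini-Hochberg adjustment of p over all of them. Errors after ± are standard errors for log2 fold changes and SD (n = 4) for read counts, and intervals cover 95%. The script was tested on simulated data. edgeR 4.0.16 on recovered reads was an alternative; for repo-1 RNAi it called 3019 genes in wild type and 8764 in raga-1, where limma called 2839 and 8766. Levels per kilobase used merged Ensembl exons.

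The labels give each library a repeat number, which was taken as the batch though the labels do not call it one. Residuals of same-numbered libraries in different groups had a median correlation of 0.031 over 180 pairs, against -0.014 over 540 pairs of unlike number, so fits without and with a batch block were made. The 10 genes and the lists were chosen with earlier results of these data known. Named from lists were up to 4 called genes with the largest changes, and genes alike in pattern by the highest correlation.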

Additional observations from a re-analysis of the deposited data

Results flagged for a closer look

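In 5 of 100 sets of 4 libraries, 1 library lay far from the other three, where chance alone would give about 5. These were snb-1 in clk-1 on repo-1 RNAi, with 1969 in replicate 2 and 2185 to 2230 in the rest, unc-17 in raga-1 on RNAi, with 172.9 in replicate 3 and 210 to 211.5 in the rest, and unc-25 in clk-1 on empty vector, with 124.3 in replicate 4 and 151 to 151.3 in the rest. The others were unc-25 in age-1 on RNAi, with 169.4 in replicate 3 and 147 to 149.9 in the rest, and egl-3 in wild type on RNAi, with 1342 in replicate 1 and 1306 to 1312 in the rest.

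The response to repo-1 RNAi in raga-1 minus that in wild type was called for all 10 genes by limma. The log2 differences were 0.94 for unc-13, 0.83 for snt-1, 0.82 for egl-3, 0.79 for unc-25, 0.71 for egl-21, 0.68 for unc-17, 0.63 for unc-64, 0.47 for unc-18, 0.46 for ric-4 and 0.25 for snb-1. In clk-1 the same difference was called for egl-3 (0.52), egl-21 (0.45), unc-13 (0.39) and unc-18 (0.32).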

How the results depend on the processing

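Of 65 calls on the 10 genes over 14 comparisons, 45 passed under each of 10 alternatives and 20 missed under at least 1. The cause of each change below was not tested. Leaving out each replicate number in turn gave 1 to 2 called genes for RNAi in wild type, 1 to 3 in eat-2, 0 to 2 in age-1 and 2 to 3 for the clk-1 interaction, and a median log2 fold change of 0.31 to 0.49 for RNAi in clk-1. Without the filter on low values, 1 gene was called for RNAi in age-1, and edgeR called 1 eat-2 interaction. Quantile normalization gave medians of 0.30 for eat-2 against wild type, 0.091 for clk-1 against wild type and -0.012 for the eat-2 interaction, and turned ric-4 in clk-1 against wild type from 0.0095 to -0.26. It moved the median of all genes from 0.12 to -0.055 in the raga-1 interaction. With edgeR on recovered reads the share of called genes that were higher went from 43.1% to 32.6% for RNAi in eat-2, from 37.1% to 19.8% for the eat-2 interaction and from 58% to 44.4% for the clk-1 interaction. The batch block let unc-17 pass in clk-1 against wild type (0.33, adjusted p = 0.0444) and changed no other call. A pseudocount of 5, or leaving out raga-1 repo-1 RNAi replicate 3 alone (4 genes called for the clk-1 interaction, as with all libraries), changed no call. Depth limits snt-1 and unc-17 most, with 24 and 34 reads in their lowest libraries.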
